A study of Homo sapiens with 9 samples.

Results

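RNA polymerase II (RNAPII) peaks downstream of gene ends were followed in 5 peak lists from human HEK293 cells, an established embryonic kidney line. A peak belonged to the set when its summit lay 1 to 5000 bp past the end of the longest protein-coding transcript of a gene at least 2 kb long, inside no other protein-coding gene, over 500 bp from any protein-coding start site (TSS), and with no protein-coding gene ending on the opposite strand within 5 kb of the summit. The rule took 8736 of the 142069 peaks in the 5 lists. Gene ends came from GENCODE on GRCh37, on which 12846 of 19820 protein-coding genes had at least 1 position where a summit could count, 56.8 Mb of sequence in all.

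The study asked how RECQL5, a DNA helicase that binds RNAPII, shapes where the polymerase sits along genes. In the hairpin arm, HEK293 cells received lentivirus with a control shRNA (shCTRL) or with RECQL5 shRNA 5 (shRNA5) or RECQL5 shRNA 7 (shRNA7). In the doxycycline arm, HEK293 T-rex cells carried a plasmid with full-length RECQL5 under a doxycycline-inducible promoter and were given doxycycline at 0.0 ng/ml or at 1.0 ng/ml, the dose labelled as inducing RECQL5 overexpression. Each of these 5 groups was 1 chromatin immunoprecipitation library, and 4 libraries with non-specific IgG served as background in peak calling. Each hairpin list had its own IgG library, while both doxycycline lists shared 1 IgG library from untreated cells. No group had a second library, so no test between conditions was possible, intervals below cover counting error or the spread between peaks or genes only, and differences between libraries cannot be told apart from differences between treatments. The lists hold no library totals. The study's methods describe similar read numbers within each arm and more reads in the hairpin arm than in the doxycycline arm, without a total for each library. Peak numbers, lengths and tags (the reads counted in a peak) were therefore compared within an arm, and where values of both arms stand side by side they also carry that difference in depth. Each peak carried a summit, the base of highest read pile-up, a score, which is the negative log10 of its p-value against the IgG library multiplied by 10, and a fold enrichment over that background. Comparisons of shRNA5 and of shRNA7 share the shCTRL library.

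The polymerase does not stop at the base where a messenger RNA ends. It transcribes the poly(A) signal, usually AATAAA or ATTAAA, the nascent RNA is cut a short way after it, and the polymerase continues for a variable distance before exonuclease XRN2 and termination factors release it from the template. RNAPII often accumulates in this stretch, so that a peak just past a gene end is a well-known feature of RNAPII maps. The same stretch can also hold starts of other transcription units, such as host genes of small nucleolar RNAs.

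RNAPII peaks at start sites of marker genes were checked first. VIM, which encodes vimentin and is expressed in HEK293 cells, had a promoter peak in all 5 lists, NEFL in 4, LHX1 in 2, PAX2 in 1 and NEFM in none. No list had a promoter peak at PTPRC, CD3E, ALB or HBB, markers of blood and liver cells. The targeted gene RECQL5 had a promoter peak upon shRNA7 and at both doxycycline doses and none in the shCTRL and shRNA5 lists. A hairpin acts on the messenger RNA, so this does not check the knockdown, and no position past the end of RECQL5 met the rule.

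The ends of 4 genes with strong downstream peaks are given as the last 30 bases of the transcript on GRCh37, 5′ to 3′ on the coding strand, because all distances are counted from the last of these bases. Capitals mark AATAAA or ATTAAA.
ACTB transcript end, chr7:5566783-5566812, minus strand: accagttgAATAAAagtgcacaccttaaaa
VIM transcript end, chr10:17279563-17279592, plus strand: ttctgcttcAATAAAtctttggaaaaactc
SET transcript end, chr9:131458635-131458664, plus strand: gaatcttgctccAATAAAggaacataaaga
PMAIP1 transcript end, chr18:57571508-57571537, plus strand: ggcagtaaactATTAAAagttttcactgtt
ACTB encodes beta-actin, VIM vimentin, SET a histone chaperone and PMAIP1 the pro-apoptotic protein NOXA. One of these hexamers stood in the last 40 bases of the transcript of 73.4% of the 12846 eligible genes. Among genes with a downstream peak the share was 70.6% in shCTRL (95% Wilson interval 65.7 to 75), 74.8% in shRNA5, 74.9% in shRNA7, 70.3% at 0.0 ng/ml and 70.7% at 1.0 ng/ml. It was 73.0% for the 9167 eligible genes without such a peak in any list, so the groups lay within a few percentage points of each other.

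The second set shows where RNAPII summits stood past 2 of those ends upon shRNA7, in windows of 150 bases on the coding strand with the summit and 2 bases on either side in capitals. They are shown because their summits lay in the interval where downstream summits were densest in the hairpin arm.
SET summit, chr9:131459427-131459576, plus strand: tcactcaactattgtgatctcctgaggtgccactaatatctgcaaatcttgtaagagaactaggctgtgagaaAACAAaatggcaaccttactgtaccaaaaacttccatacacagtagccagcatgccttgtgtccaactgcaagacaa
PMAIP1 summit, chr18:57572350-57572499, plus strand: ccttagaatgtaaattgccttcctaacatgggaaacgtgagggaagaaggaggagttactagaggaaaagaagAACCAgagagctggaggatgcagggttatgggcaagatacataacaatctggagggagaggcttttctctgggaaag
The SET summit stood 838 bp past the end and the PMAIP1 summit 888 bp. Neither window overlapped an annotated UTR.

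The third set shows downstream peaks of another kind, in which the summit stood within 209 bp of the annotated start of a non-coding RNA gene. Capitals again mark the summit and 2 bases on either side in the shRNA7 list, and the strand is that of the upstream protein-coding gene.
TRNAU1AP (SNHG12) summit, chr1:28908262-28908411, plus strand: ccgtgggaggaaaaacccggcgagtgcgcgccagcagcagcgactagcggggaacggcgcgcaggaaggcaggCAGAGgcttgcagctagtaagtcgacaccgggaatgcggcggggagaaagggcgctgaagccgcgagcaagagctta
DIPK1B (SNHG7) summit, chr9:139622489-139622638, plus strand: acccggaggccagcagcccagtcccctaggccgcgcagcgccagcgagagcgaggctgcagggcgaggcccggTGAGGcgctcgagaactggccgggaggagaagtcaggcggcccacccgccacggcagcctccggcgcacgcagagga
TEX2 (SNHG25) summit, chr17:62223270-62223419, minus strand: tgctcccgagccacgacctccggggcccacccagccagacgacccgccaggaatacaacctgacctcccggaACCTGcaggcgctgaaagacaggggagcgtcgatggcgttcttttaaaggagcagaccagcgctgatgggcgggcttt
SNX6 (RNU1-28P) summit, chr14:35025311-35025460, minus strand: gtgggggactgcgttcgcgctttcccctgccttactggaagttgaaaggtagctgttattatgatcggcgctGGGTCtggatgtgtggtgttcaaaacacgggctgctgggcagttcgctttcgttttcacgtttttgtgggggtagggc
SNHG12, SNHG7 and SNHG25 are host genes of small nucleolar RNAs, and RNU1-28P carries the name of a pseudogene of U1, a small nuclear RNA. These loci are described further below.

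Downstream peaks made up 7.40% of the shCTRL list (391 of 5287 peaks, 95% Wilson interval 6.72 to 8.13), 8.73% of the shRNA5 list (2069 of 23698, 8.38 to 9.10) and 8.45% of the shRNA7 list (2714 of 32124, 8.15 to 8.76). In the doxycycline arm they made up 4.71% at 0.0 ng/ml (2218 of 47060, 4.53 to 4.91) and 3.96% at 1.0 ng/ml (1344 of 33900, 3.76 to 4.18). Both RECQL5 hairpin lists thus held a larger share than shCTRL, and the induced list a smaller share than the uninduced one, by more than the counting intervals. Within the hairpin arm this depended on the settings. With a window of 2 kb the shares were 5.05% in shCTRL, 5.11% in shRNA5 and 5.19% in shRNA7, and among peaks of at least 10-fold enrichment shRNA5 was below shCTRL, at 6.51% against 6.71%.

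**Figure D1:**
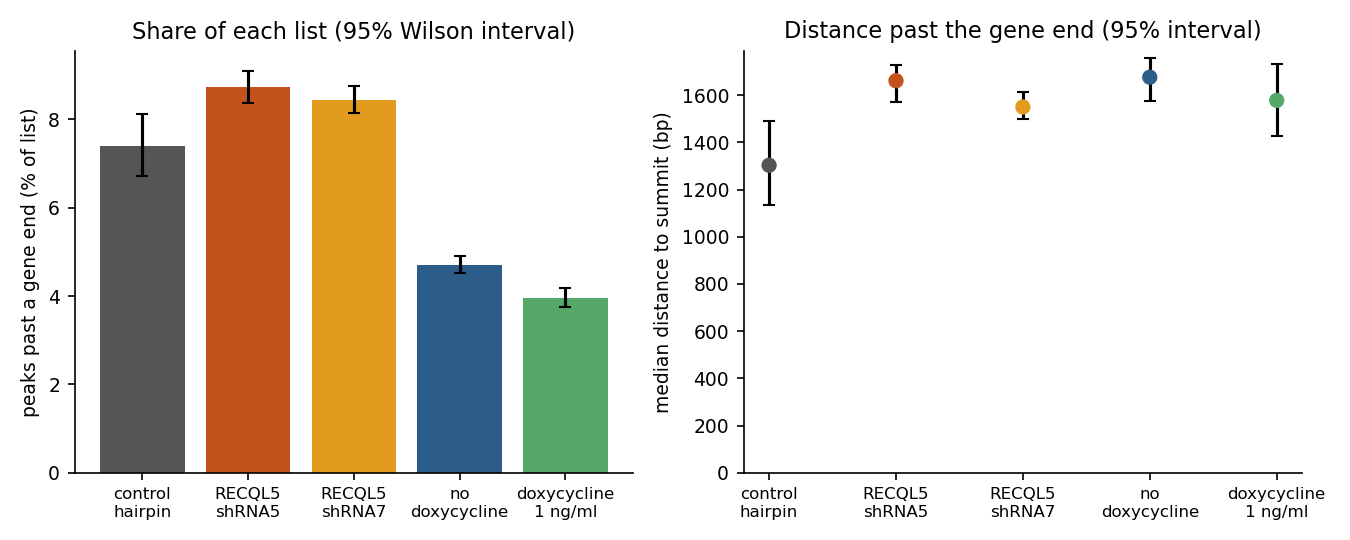
Left, bars give the share of each list's peaks that lay past a gene end, in percent, with 95% Wilson intervals. Right, points give the median distance from gene end to summit in bp with a 95% interval of the median. The hairpin lists stand between 7.40 and 8.73%, the doxycycline lists at 4.71 and 3.96%, and the shCTRL median of 1303 bp is the shortest of the 5.

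The number of downstream peaks was 5.29 times that of shCTRL upon shRNA5 (interval 4.75 to 5.90) and 6.94 times upon shRNA7 (6.24 to 7.72). All peaks of the lists numbered 4.48 (4.35 to 4.62) and 6.08 (5.90 to 6.26) times those of shCTRL, so most of the rise was shared by the whole list. The study itself describes more peaks for its control and for both hairpins than the deposited lists hold, and smaller folds. The source of that difference was not tested. The downstream fold stood between those of the other gene parts. Promoter-proximal peaks, which came within 500 bp of a TSS and were not counted as downstream, numbered 2.86 and 3.42 times those of shCTRL. Gene-body peaks numbered 6.86 and 10.1 times. At 1.0 ng/ml doxycycline the number of downstream peaks was 0.606 times that at 0.0 ng/ml (0.566 to 0.648). The ratio was 0.720 (0.710 to 0.730) for all peaks, 0.802 (0.781 to 0.823) for promoter-proximal peaks and 0.738 (0.725 to 0.751) for gene-body peaks. Peaks that were neither downstream, promoter-proximal nor in gene bodies changed more in number than downstream peaks in both arms. They numbered 326 in shCTRL, 2061 upon shRNA5 and 2878 upon shRNA7, and 4972 at 0.0 ng/ml and 2349 at 1.0 ng/ml. When each arm was reduced to the length of its shortest list by score, the ratios became 1.49 upon shRNA5, 1.81 upon shRNA7 and 0.885 with doxycycline. Among peaks of at least 10-fold enrichment they were 1.25, 2.30 and 0.232, and among peaks with a score of at least 100 the shRNA7 ratio was 10.7.

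The summits were placed along the gene end to see whether they followed the end itself. In the hairpin arm the density of summits rose across the end and was highest 500 to 1000 bp past it in all 3 lists. It reached 12.7 summits per Mb in shCTRL, 63.0 per Mb in shRNA5 and 79.8 per Mb in shRNA7 in that bin, against 5.71, 23.3 and 28.4 per Mb over the last 5 kb of the genes. From 5 to 10 kb past the end the densities were 1.53, 11.4 and 13.2 per Mb. In the doxycycline arm the density declined gradually past the end, without a crest of that size. Summits stood at 58.8 per Mb at 0.0 ng/ml and 39.5 per Mb at 1.0 ng/ml over the last 5 kb of the genes, at 67.3 and 40.4 per Mb in the first 500 bp past the end, and at 15.0 and 8.03 per Mb from 5 to 10 kb.

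**Figure D2:**
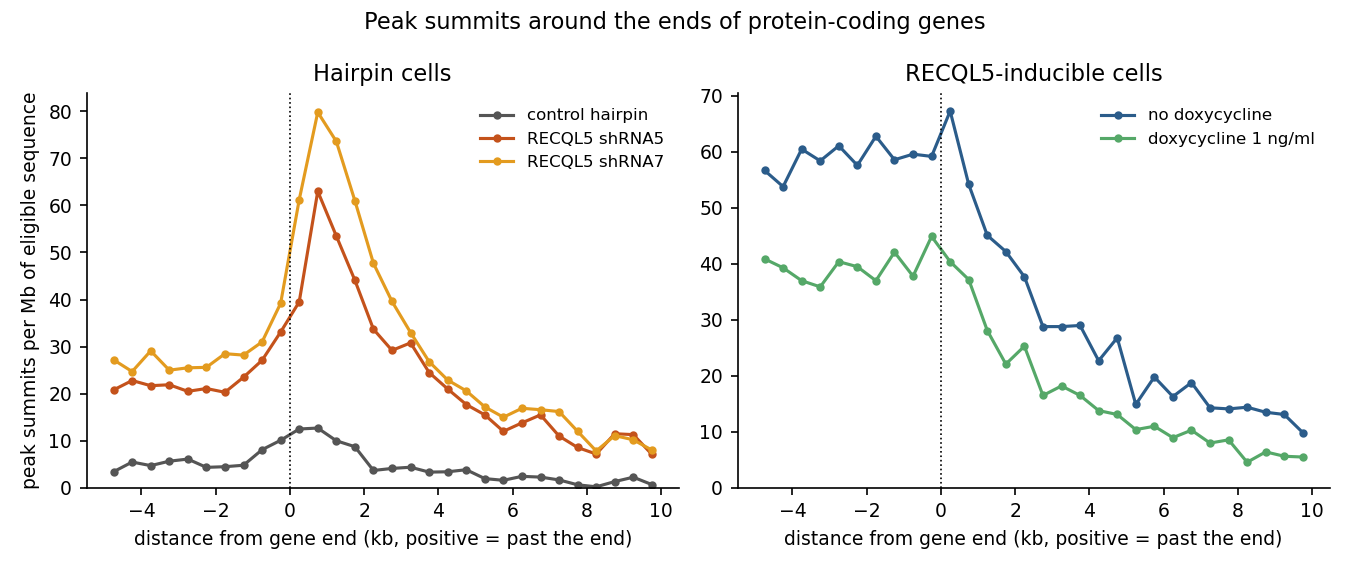
Peak summits per Mb of eligible sequence, in bins of 500 bp from 5 kb before to 10 kb past the gene end (dotted line), for the 3 hairpin lists on the left and the 2 doxycycline lists on the right. The hairpin lists crest 500 to 1000 bp past the end at 12.7, 63.0 and 79.8 summits per Mb, and the doxycycline lists decline from the gene's own level without a crest of that size.

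The density in the first 2000 bp past the end over that of the last 5 kb of the gene gives each list its own reference. It was chosen after the profiles had been seen. This ratio was 1.93 in shCTRL (1.65 to 2.26), 2.15 in shRNA5 (1.99 to 2.32) and 2.43 in shRNA7 (2.27 to 2.59), and 0.891 (0.836 to 0.95) at 0.0 ng/ml and 0.815 (0.752 to 0.883) at 1.0 ng/ml. Hairpin lists were above 1 and doxycycline lists below 1, with or without peaks at non-coding starts, peaks that touched a coding promoter, or peaks with a score under 100, although in the last case the interval at 0.0 ng/ml (0.823 to 1.04) held 1. The arms also differed in peak width: with peaks under 2 kb alone the ratios were 1.95, 1.66 and 1.53 in the hairpin arm, and 0.881 and 0.784 in the doxycycline arm. Among peaks of at least 10-fold enrichment the ratios were 1.98, 4.34 and 4.0 in the hairpin arm, and with lists of equal length 1.93, 3.52 and 3.8. The order of the 3 hairpin lists therefore depended on which peaks entered, while the arms stayed on either side of 1. The arms differed in cells, virus and IgG library as well, and which of these moved with the profile was not tested.

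Within the 5 kb window the median distance from gene end to summit was 1303 bp in shCTRL (95% interval of the median 1134 to 1491), 1661 bp in shRNA5 (1573 to 1729), 1550 bp in shRNA7 (1497 to 1614), 1676 bp at 0.0 ng/ml (1576 to 1757) and 1578 bp at 1.0 ng/ml (1429 to 1731). The shCTRL summits were nearer to the end than those of either RECQL5 hairpin, while the intervals of the doxycycline lists overlapped. With the hairpin lists reduced to equal length the medians were 1556 bp in shRNA5 and 1403 bp in shRNA7, the latter inside the shCTRL interval. Summits within 1000 bp of the end made up 39.9% in shCTRL, 30.6% in shRNA5, 32.1% in shRNA7, 33.9% at 0.0 ng/ml and 35.8% at 1.0 ng/ml.

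The same genes gave smaller shifts. In the 275 genes with a downstream peak in both shRNA5 and shCTRL, the highest-scoring summit lay a median 25 bp further out upon shRNA5 (1.00 to 70.0), further in 155 genes and nearer in 120. In 220 genes with one upon shRNA7 and in shCTRL the median was 7.5 bp (−15.0 to 87.0). With doxycycline the summit lay nearer to the end, with a median difference (1.0 minus 0.0 ng/ml) of −40.5 bp (−71.0 to −11) over 710 genes. In 45.1%, 44.1% and 33.0% of these genes both summits were within 200 bp of each other. The longer median of the RECQL5 hairpin lists was thus not matched by a like shift in genes that already had a downstream peak in shCTRL.

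Summits were also found just beyond the edge of the window. Summits in the last 500 bp of the window numbered 20, 92, 107, 139 and 68 in shCTRL, shRNA5, shRNA7, 0.0 and 1.0 ng/ml, with median tags of 71.0, 81.5, 100, 12.0 and 20.5. The next 500 bp held 10, 79, 88, 76 and 53, with median tags of 91.5, 70.0, 90.0, 11 and 19.0.

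The lengths and tags of downstream peaks are given for each arm in turn. Their median length was 2247 bp in shCTRL, 2257 bp in shRNA5 and 2872 bp in shRNA7, with median tags of 103, 106 and 139.5. In the doxycycline arm the median length was 581 bp at 0.0 ng/ml and 659 bp at 1.0 ng/ml, with median tags of 12.0 and 21.0. In the hairpin arm the peak also reached back over the gene end in 50.9% of shCTRL, 42.0% of shRNA5 and 51.4% of shRNA7 cases, so that signal ran through the end without a gap. This held for 15.3% at 0.0 ng/ml and 19.2% at 1.0 ng/ml. The far edge lay a median 2772, 3148 and 3288 bp past the end in shCTRL, shRNA5 and shRNA7, and 2074 and 2088 bp at the 2 doses.

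Upon RECQL5 knockdown the downstream peaks stood between promoter and gene-body peaks in strength. Their median score was 136 in shRNA5 (129.7 to 144) and 175 in shRNA7 (164 to 188), against 182 and 219.6 at promoters and 87.5 and 94.7 in gene bodies. In shCTRL downstream and promoter-proximal peaks had like scores, 94.3 (86.7 to 101) and 91.8 (89.3 to 94.5), with gene bodies at 79.7. In the doxycycline arm downstream peaks were close to gene-body peaks: 70.2 against 66.2 at 0.0 ng/ml and 80.2 against 71.8 at 1.0 ng/ml, with promoters at 221 and 188. Tag density was higher at promoters than past the ends in all 5 lists. It was 51.5 against 45.9 tags per kb in shCTRL, 54.0 against 46.4 upon shRNA5 and 33.1 against 21.6 at 0.0 ng/ml, with gene bodies at 44.1, 43.0 and 21.0.

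Overlap with the other lists depended on what counted as overlap. Of the 391 shCTRL peaks, 386 (98.7%, 97.0 to 99.5) were overlapped by at least 1 bp of a shRNA5 peak and 352 (90.0%, 86.7 to 92.6) by a shRNA7 peak, beside 97.4% and 88.4% of all shCTRL peaks, values inside both intervals. The RECQL5 hairpin lists are much longer, and with summits within 500 bp of each other as the condition the shares were 47.3% and 36.3%. Among peaks of at least 10-fold enrichment they were 67.9% and 78.4%. In the other direction 17.5% of shRNA5 and 10.6% of shRNA7 downstream peaks had a shCTRL peak over them, beside 19.0% and 11.7% of all peaks of those lists. Between the RECQL5 hairpins, 90.1% of shRNA5 downstream peaks met a shRNA7 peak (88.7 to 91.3), beside 85.2% of all shRNA5 peaks, and 55.3% of shRNA7 downstream peaks met a shRNA5 peak (53.4 to 57.2), beside 51.9% of all. Of the 1344 downstream peaks at 1.0 ng/ml, 63.4% (60.8 to 65.9) were overlapped by a peak at 0.0 ng/ml, beside 61.8% of all. Of the 2218 at 0.0 ng/ml, 38.9% (36.9 to 40.9) were overlapped by a peak at 1.0 ng/ml, beside 45.6% of all peaks there. Downstream peaks were thus found again less often than peaks as a whole upon induction. These shares were not matched for peak strength. Median scores at 0.0 ng/ml were 70.2 for downstream, 66.2 for gene-body and 221 for promoter-proximal peaks. A peak that overlapped did not always have its own summit past the same kind of end: counting downstream peaks alone, 75.4% and 60.9% of shCTRL peaks were met upon shRNA5 and shRNA7 and 54.5% of induced peaks at 0.0 ng/ml.

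The downstream peaks belonged to 364 genes in shCTRL, 1848 upon shRNA5, 2486 upon shRNA7, 1575 at 0.0 ng/ml and 1015 at 1.0 ng/ml, that is 2.83%, 14.4%, 19.4%, 12.3% and 7.90% of the eligible genes. In all, 3679 genes had a downstream peak in at least 1 list, 1616 of them in exactly 1 list, and 132 in all 5. More than 1 downstream peak stood past 27 of the shCTRL genes, 215 of the shRNA5 genes and 218 of the shRNA7 genes, with up to 3 on a gene. In the doxycycline arm this held for 451 of 1575 genes at 0.0 ng/ml and 249 of 1015 at 1.0 ng/ml, with up to 6. Median gene length was 19.9 kb in shCTRL, 31.5 and 34.8 kb upon shRNA5 and shRNA7, 23.7 kb at 0.0 ng/ml and 26.8 kb at 1.0 ng/ml, against 31.4 kb over the eligible genes.

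Downstream peaks were more frequent on genes with a promoter peak. Of eligible genes with a promoter peak, 11.2% had a downstream peak in shCTRL (9.86 to 12.6), 28.3% upon shRNA5 (27.1 to 29.5), 33.4% upon shRNA7 (32.3 to 34.5), 19.4% at 0.0 ng/ml (18.5 to 20.3) and 14.9% at 1.0 ng/ml (14 to 15.8). Of genes without a promoter peak the shares were 1.28%, 4.07%, 4.36%, 3.26% and 1.72%. A downstream peak that reached a TSS of its own gene counted as its promoter peak as well, so part of this difference was built in. In the same order of lists, 9.46%, 8.02%, 8.11%, 1.85% and 3.27% of downstream peaks touched a coding promoter of any gene. In shCTRL 73 of 364 genes (20.1%) had no peak, the downstream one included, that reached the promoter or the body. This share was 7.25% upon shRNA5, 3.82% upon shRNA7, 7.56% at 0.0 ng/ml and 7.29% at 1.0 ng/ml. The shCTRL list was the shortest of the 5, and the part of its length in this share was not tested.

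Of the 364 genes with a downstream peak in shCTRL, 275 also had one upon shRNA5, 84 had a peak that reached into the 5 kb with its summit elsewhere, and 5 had no peak there. Upon shRNA7 the counts were 220, 107 and 37. Conversely 1335 genes had a downstream peak upon both RECQL5 hairpins, and in 1093 of them no shCTRL peak touched the 5 kb. With doxycycline 710 genes had one at both doses. Another 196 had one at 1.0 ng/ml and nothing in the 5 kb at 0.0 ng/ml, and 696 had the reverse. Of all 12846 eligible genes, no peak touched the 5 kb in 11908 in shCTRL, 9619 upon shRNA5 and 8429 upon shRNA7. At 0.0 and 1.0 ng/ml these were 10192 and 10880. Among all peaks, 19.0% upon shRNA5 and 11.7% upon shRNA7 had a shCTRL peak over them. Between the doses this held for 61.8% of all peaks at 1.0 ng/ml and 45.6% at 0.0 ng/ml.

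Signal at the end was then compared with signal at the promoter of the same gene, since the depth of a library enters both terms of this ratio. This does not free the ratio of depth, because only peaks that passed the caller enter it. Tag density of the downstream peaks over that of separate promoter peaks was taken in genes with both in both lists. Its median was 0.936 upon shRNA5 and 0.876 in shCTRL over 148 genes, and the median change of single genes was 0.13 on the log2 scale (95% interval of the median 0.08 to 0.19), higher in 101 and lower in 47. Upon shRNA7 the medians were 0.982 and 0.865 over 100 genes, with a change of 0.25 (0.09 to 0.33), higher in 69 and lower in 31. With 1.0 ng/ml doxycycline they were 0.629 against 0.493 at 0.0 ng/ml over 622 genes, with a change of 0.32 (0.28 to 0.37), higher in 484 and lower in 138. The ratio of end to promoter was higher upon shRNA5, upon shRNA7 and at 1.0 ng/ml than in the control list of each pair. The hairpin pairs share shCTRL. Intervals cover the spread between genes of 1 pair of libraries.

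**Figure D3:**
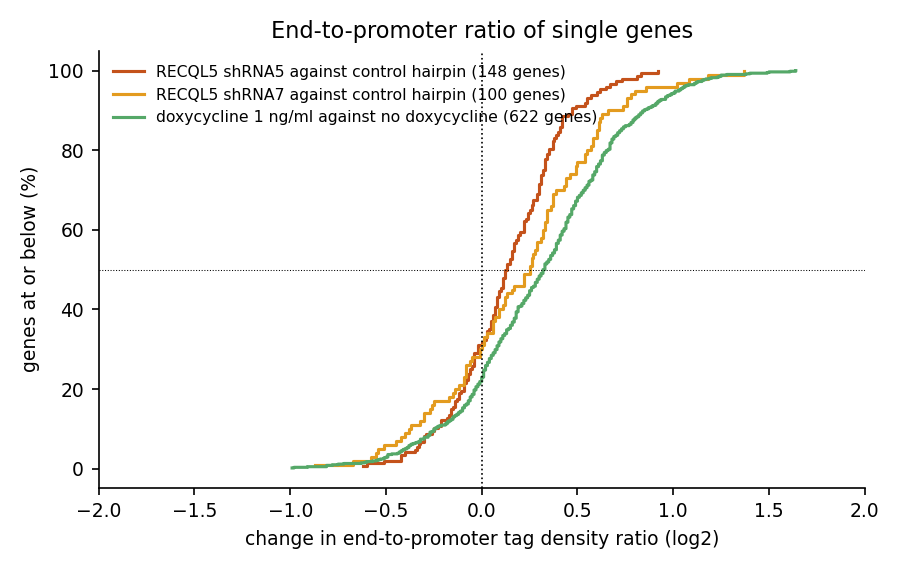
Cumulative share of genes (percent) by the change in end-to-promoter tag density ratio (log2) upon shRNA5 (148 genes), shRNA7 (100 genes) and 1.0 ng/ml doxycycline (622 genes), each against its control list. The horizontal axis is drawn from −2 to 2. All 3 curves cross 50% to the right of 0, at 0.13, 0.25 and 0.32.

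Gene bodies were the point of difference between the arms. In the genes that had downstream, promoter and separate body peaks in both lists, body density over promoter density changed by −0.12 on the log2 scale upon shRNA5 (−0.22 to −0.04, 56 genes) and by −0.26 upon shRNA7 (−0.33 to −0.17, 35 genes), while with doxycycline it changed by 0.35 (0.31 to 0.40, 467 genes). Upon knockdown body density was thus lower relative to the promoter, where end density over the larger sets of genes was higher, and with doxycycline both were higher. With tags per peak in place of tags per kb the body changes were 0.03 (−0.39 to 0.71) upon shRNA5, −0.34 (−1.28 to 0.77) upon shRNA7 and 0.43 (0.26 to 0.51) with doxycycline, so on that scale no lower body ratio was seen upon shRNA5, and upon shRNA7 the interval held 0. Density at the end alone was 1.41 times that of shCTRL upon shRNA5, 1.67 times upon shRNA7 and 1.42 times that of 0.0 ng/ml with doxycycline, and at the promoter alone 1.29, 1.47 and 1.14 times. These densities were not scaled to library totals. A peak has to pass the caller in both lists to enter, so genes whose downstream peak was lost or gained are not in these medians.

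ACTB held the downstream peak with the highest score in shCTRL, from chr7:5559892-5570726, which ran through the gene end with 1315 tags and its summit 678 bp past it. It held 2030 tags upon shRNA5 with the summit at 1599 bp, and 3114 tags upon shRNA7 with the summit at 448 bp. At 1.0 ng/ml its peak had 435 tags and a summit at 498 bp, and at 0.0 ng/ml a peak touched the 5 kb with its summit elsewhere. All 4 ACTB peaks reached an ACTB promoter, and in shCTRL, shRNA7 and at 1.0 ng/ml the summit lay inside another ACTB transcript. VIM had 727 tags in shCTRL, 2357 upon shRNA5 and 3448 upon shRNA7, with summits 195, 869 and 815 bp past the end, and at both doses a peak touched the 5 kb with its summit elsewhere. The shRNA5 and shRNA7 peaks ran back to the VIM promoter and the shCTRL peak did not, so the tags cover different stretches. PMAIP1 had 1688 tags upon shRNA5 and 3733 upon shRNA7, with summits at 813 and 888 bp, in peaks that reached its promoter. In shCTRL and at both doses its 5 kb was only touched by a peak with its summit elsewhere. ARHGDIA had a peak of 52769 bp upon shRNA7, the longest of its 5, which touched its own promoter and those of ALYREF, ANAPC11 and P4HB. Its summit at 205 bp therefore stands for a joined domain of several genes.

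Positions were then compared across lists. Of the 132 genes with a downstream peak in every list, the 10 with the highest lowest score were SNX6, DIPK1B, TEX2, TRNAU1AP, SET, CYP1A2, DDX56, EPB41L4A, SLC25A1 and CHCHD2. Past TRNAU1AP, which encodes a selenocysteine tRNA-associated protein, the 5 summits lay at 3285, 3287, 3280, 3292 and 3277 bp in shCTRL, shRNA5, shRNA7, 0.0 and 1.0 ng/ml. All 5 were within 16 bp of the annotated start of SNHG12, and the peaks held 440, 760, 1357, 567 and 751 tags.

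Past DIPK1B the summits lay at 3423, 3412, 3370, 3401 and 3399 bp, within 66 bp of the start of SNHG7, with 391, 834, 1755, 615 and 556 tags. Past TEX2 they lay at 1237, 1295, 1242, 1221 and 1214 bp, within 43 bp of the nearest start at SNHG25 and SNORD104, with 228, 451, 766, 322 and 287 tags. Past SNX6, a sorting nexin gene, they lay at 4788, 4849, 4913, 4812 and 4860 bp, 84 to 209 bp from the start of RNU1-28P, with 490, 895, 1443, 826 and 565 tags. Past EPB41L4A they lay at 1708, 1672, 1715, 1715 and 1693 bp, within 46 bp of the start of EPB41L4A-AS1, with 318, 686, 1068, 158 and 119 tags. These 5 loci kept their summits within 15 to 125 bp across both arms.

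SET behaved otherwise: its summits lay at 1114, 205, 838, 103 and 996 bp, a range of 1011 bp, with 290, 839, 1412, 134 and 171 tags and no non-coding start within 500 bp of any of them. Past DDX56, an RNA helicase gene, the range was 2042 bp, and past CHCHD2, which encodes a mitochondrial protein, it was 2198 bp. Past CYP1A2, a cytochrome P450 gene, the 5 summits lay at 3997, 3927, 3849, 3940 and 3948 bp, a range of 148 bp, with no annotated start within 500 bp and peaks of 169, 338, 693, 189 and 228 tags. CYP1A2 was thus the exception among the 10, a fixed position with no annotated start near it.

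**Figure D4:**
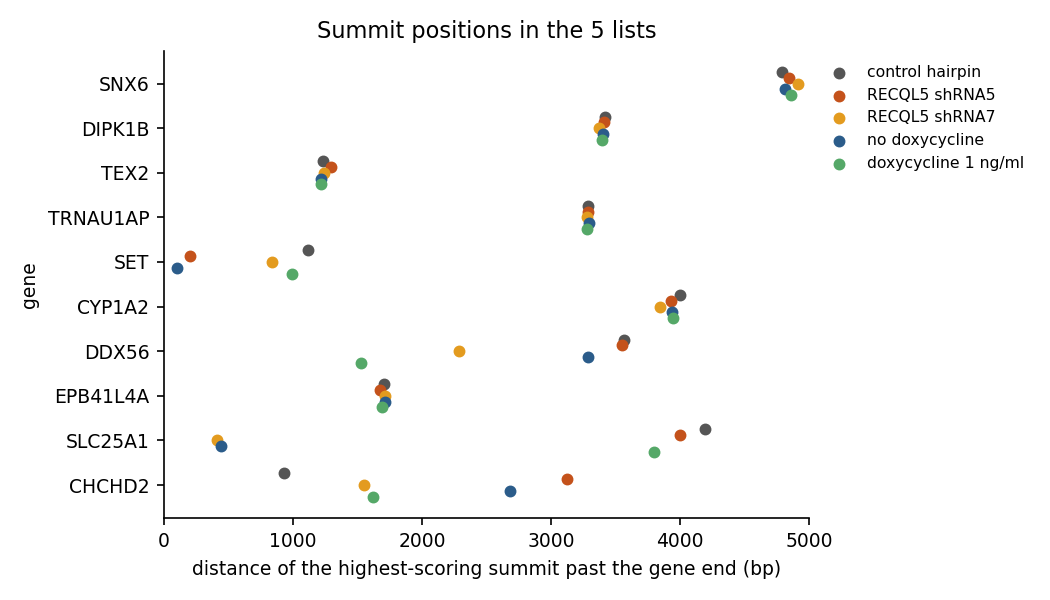
Distance of the highest-scoring summit past the gene end, in bp, in each of the 5 lists (colours) for the 10 genes named above. Points of TRNAU1AP, DIPK1B, TEX2, EPB41L4A, SNX6 and CYP1A2 fall on top of each other, within 15 to 148 bp, and those of SET, DDX56, CHCHD2 and SLC25A1 spread over 1011 to 3783 bp.

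The split seen in these genes was examined in all 132. In 17 genes the summit stood within 500 bp of a non-coding start in all 5 lists, and the median range of the 5 summits was 78.0 bp (15 to 566 bp), with 12 of 17 within 200 bp. In the 96 genes without such a start in any list the median range was 1304 bp (81 to 4281 bp), with 8 of 96 within 200 bp. In the 19 genes with a start near the summit in 1 to 4 lists it was 2085 bp. A window of 500 bp around 1 start limits the range by itself, so these numbers are a description.

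Summits within 500 bp of a non-coding start were a small part of all downstream peaks. They were a larger part of the strong ones in every list except shRNA7. They made up 10.2% of downstream peaks in shCTRL (40 of 391), 6.09% in shRNA5, 5.23% in shRNA7, 8.30% at 0.0 ng/ml and 8.48% at 1.0 ng/ml. Among the 50 highest scores of each list they numbered 11, 9, 3, 17 and 14. Their median score was 118 (99.5 to 148) against 68.9 (67.4 to 70.5) for the other downstream peaks at 0.0 ng/ml, and 134 (101 to 167) against 78.4 (75.5 to 81.4) at 1.0 ng/ml. Upon shRNA7 the medians were 199.7 (161 to 277) and 173 (161 to 187), with overlapping intervals. Summits at non-coding starts also had a larger median distance, 2264 bp against 1610.0 bp at 0.0 ng/ml and 2126 bp against 1621 bp upon shRNA5. In shCTRL and shRNA7 the intervals overlapped. The medians were 1915 bp (1213 to 3285) against 1250.0 bp (1082 to 1467) in shCTRL. Upon shRNA7 they were 1924 bp (1399 to 2418) against 1545 bp (1490.0 to 1609).

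Part of the summits lay in or near other annotated features. Between 8.11% and 11.1% of downstream summits lay inside another transcript of the same gene, 4.16 to 6.39% in a non-coding gene on the same strand and 11.6 to 15.6% in one on the opposite strand. A coding TSS lay within 2 kb of 9.21% in shCTRL, 6.57% in shRNA5, 4.75% in shRNA7, 8.21% at 0.0 ng/ml and 8.18% at 1.0 ng/ml. The peak itself touched a coding promoter in 9.46%, 8.02%, 8.11%, 1.85% and 3.27%.

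Of the 1093 genes with a downstream peak upon both RECQL5 hairpins and none touching the 5 kb in shCTRL, those with the highest lower score included WDR77, FAM53C, GCN1 and PPP4R3A. WDR77, a partner of the arginine methyltransferase PRMT5, had 569 tags over 9437 bp upon shRNA5 and 596 over 8271 bp upon shRNA7. GCN1, which acts in the amino acid starvation response, had 479 and 658 tags with summits at 2985 and 1873 bp. PPP4R3A, a regulatory subunit gene of protein phosphatase 4, had 453 and 643 tags with summits at 4325 and 2954 bp. All 4 were picked for having no shCTRL peak in the 5 kb. The FAM53C peaks upon both RECQL5 hairpins also touched the promoter of the next gene, KDM3B. Cells without a RECQL5 hairpin had downstream peaks past these genes too. At 0.0 ng/ml the highest-scoring ones held 166 tags at FAM53C, 28 at GCN1 and 16 at WDR77. At 1.0 ng/ml they held 38 tags at GCN1, 20 at PPP4R3A and 16 at WDR77.

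The doxycycline arm gave examples in both directions. At 1.0 ng/ml with nothing in the 5 kb at 0.0 ng/ml, the highest scores were those of PGPEP1, RFWD3, RBBP5, KDM6A and PRRC2C, with 35 to 56 tags. The summit past PGPEP1 was 842 bp from the TSS of GDF15 and that past RBBP5 was 806 bp from the TSS of TMEM81, and both peaks touched those promoters. In the other direction P4HB, NPIPB5, HOXA9, TXN and AC005488.1 led, with 55 to 96 tags at 0.0 ng/ml. P4HB encodes protein disulfide isomerase and TXN thioredoxin. NPIPB5 belongs to a family of near-identical copies, where reads cannot be placed with certainty.

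Gene groups were counted against the eligible genes of each list. Of the 24 genes for 3′ end processing and termination, 13 were eligible, and a downstream peak stood past 2 in shCTRL, 6 upon shRNA5, 6 upon shRNA7, 2 at 0.0 ng/ml and 3 at 1.0 ng/ml, or 15.4%, 46.2%, 46.2%, 15.4% and 23.1% beside 2.83%, 14.4%, 19.4%, 12.3% and 7.90% of all eligible genes. RBBP6, which takes part in mRNA cleavage, had 78, 330 and 473 tags in shCTRL, shRNA5 and shRNA7 with summits at 12, 546 and 509 bp, 12 tags at 0.0 ng/ml and no peak at 1.0 ng/ml.

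Of 14 heat shock and chaperone genes 8 were eligible, and 3, 4, 3, 7 and 5 had a downstream peak in the 5 lists in the same order, or 37.5%, 50%, 37.5%, 87.5% and 62.5% beside 2.83%, 14.4%, 19.4%, 12.3% and 7.90% of all eligible genes. HSPD1, the mitochondrial chaperonin, had 237, 710, 2096, 85 and 203 tags, and its shRNA7 peak alone also touched the promoters of HSPD1 and HSPE1. HSPA9, the mitochondrial HSP70, had 245 tags in shCTRL, 2619 upon shRNA7 in a peak of 31817 bp, and 53 and 83 tags at the 2 doses, and upon shRNA5 its 5 kb was touched only. Of 79 ribosomal protein genes 43 were eligible. Past these, 14 had a downstream peak in shCTRL (32.6%), 6 upon shRNA5 (14%), 8 upon shRNA7 (18.6%), 18 at 0.0 ng/ml (41.9%) and 16 at 1.0 ng/ml (37.2%). A further 33 upon shRNA5 and 30 upon shRNA7 had their 5 kb touched by a peak with its summit elsewhere, against 21 in shCTRL, and over all eligible genes such genes numbered 1379, 1931 and 574.

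The smaller lists are read beside the same shares of all eligible genes, 2.83%, 14.4%, 19.4%, 12.3% and 7.90%. The hnRNP genes (10 eligible) had 0, 3, 2, 4 and 4 with a downstream peak, and 7, 5, 7, 4 and 3 touched only. HNRNPF, a splicing regulator, had 766 tags upon shRNA5, 3659 upon shRNA7 in a peak of 31184 bp that reached its promoter, 139 at 0.0 ng/ml and 525 at 1.0 ng/ml. The glycolysis genes (7 eligible) had 3, 4, 3, 2 and 3, the SR protein genes (7 eligible) 1, 2, 2, 2 and 2, and the immediate early genes (11 eligible) 2, 3, 3, 3 and 2. Of 7 genes treated singly in the study, 6 were eligible (KIFAP3, CTNNBL1, OPA1, ITPR1, IFT80 and EFNA2), and none of them had any peak within 5 kb past its end in any list.

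Base composition at the summits differed between lists. The median AT content of 2 kb around the summit was 53.1% in shCTRL (52.2 to 54.5), 55.8% in shRNA5 (55.4 to 56.1), 56.2% in shRNA7 (55.8 to 56.5), 52.2% at 0.0 ng/ml (51.8 to 52.6) and 53.3% at 1.0 ng/ml (52.8 to 53.9). Over 181149 windows tiled along all eligible sequence past gene ends it was 56.3%. Summits upon both RECQL5 hairpins thus lay near the composition of the region as a whole, and those of the other 3 lists were richer in G and C. At non-coding starts the median was 47.6 to 49.4% in the 5 lists.

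Runs of 5 G on the coding strand, which occur in G-rich pause elements past some gene ends, were counted in 300 bases around each summit. Windows of 150 bases are shown for 2 named genes upon shRNA7, picked because they hold the run, with each GGGGG in capitals. The SRSF4 summit lay inside a non-coding gene, 402 bp from an annotated start of that gene. The HNRNPF peak reached back to the HNRNPF promoter.
HNRNPF summit, chr10:43880338-43880487, minus strand: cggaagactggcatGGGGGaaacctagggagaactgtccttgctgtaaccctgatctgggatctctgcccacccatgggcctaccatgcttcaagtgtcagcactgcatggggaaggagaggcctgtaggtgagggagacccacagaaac
SRSF4 summit, chr1:29473029-29473178, minus strand: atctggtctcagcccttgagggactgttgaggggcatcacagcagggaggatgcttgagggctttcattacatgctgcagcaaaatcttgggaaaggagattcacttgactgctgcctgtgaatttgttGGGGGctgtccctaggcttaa
GGGGG stood on the coding strand in 24.8% of windows in shCTRL (20.8 to 29.3), 20.1% in shRNA5 (18.4 to 21.9), 20% in shRNA7 (18.5 to 21.5), 25.2% at 0.0 ng/ml (23.4 to 27.1) and 24.2% at 1.0 ng/ml (22 to 26.5), beside 16.9% of all 300-base windows past eligible gene ends. CCCCC, the same run on the other strand, stood in 18.4%, 16.0%, 16.1%, 22.2% and 20.8%, beside 17.0%. In the RECQL5 hairpin lists the G run was above and the C run at or below the share of all windows, and in the doxycycline lists both were above it. Leaving out summits at non-coding starts gave 23.6%, 19.2%, 19.4%, 24.3% and 22.5% for GGGGG. A match is a description of the letters and not a site.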

How the data were processed

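RNAPII chromatin immunoprecipitation was sequenced from 5 groups of 1 library each, with 4 IgG libraries as background. The submitters' processing notes name CASAVA 1.8, Bowtie 0.12.7 and MACS 1.4.2 and the build hg19. The authors called peaks with MACS in each single library against IgG, without pooling. The deposited lists give tag counts per peak, a score (the negative log10 of the p-value multiplied by 10, from 50.0 upward), fold enrichment over background as a ratio and a false discovery rate in percent. The deposited values were used as given. Peaks of a deeper library pass the caller more easily, and library totals were not used here.

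Summits (start + summit − 1) were placed on GENCODE v44 mapped to GRCh37 with Python 3.11.15, numpy 2.4.6, pandas 2.3.3, scipy 1.17.1, pysam 0.24.0 and matplotlib 3.10.9. The distance to an opposite gene end was counted from the summit. The genes and gene lists were chosen with earlier results of these data known. Named genes were those of the 3 highest scores in each list (ties ordered by fold enrichment), the 10 genes in all 5 lists with the highest lowest score, 5 in each of the classes gained upon both hairpins, gained with doxycycline and lost with doxycycline, gene-list members with a downstream peak in at least 4 lists, and genes the study followed singly. A few items that these rules name are not reported here. Shares carry 95% Wilson intervals, folds of counts intervals from the same method, and medians order-statistic intervals. No p-value was computed. Scripts were tested on simulated data. Alternatives covered score, fold enrichment, FDR, list length, window, annotation and overlap, and those for the density ratio were added after seeing the data.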

Additional observations from a re-analysis of the deposited data

How the results depend on the processing

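Of 177 values recomputed for 19 results, 116 stayed within the interval of the value reported and 61 moved. Only the end-to-promoter changes could take either sign, and none of them reversed it. With a score of at least 100 the shRNA7 change was 0.17, with an interval (−0.08 to 0.39) that held 0. The shRNA5 change was then 0.10 (0.01 to 0.22). The share in shRNA5 fell below that in shCTRL with at least 10-fold enrichment. All 19 results stayed within the interval of the value reported with the peak centre in place of the summit and with chromosomes 1 to 22 and X alone. Shares in shCTRL, shRNA5, shRNA7, 0.0 and 1.0 ng/ml moved as follows. A score of at least 100 gave 8.25, 9.87, 10.1, 3.84 and 3.35%. At least 10-fold enrichment gave 6.71, 6.51 and 8.02% in the hairpin arm and 3.09% at 1.0 ng/ml. Equal list length gave 11 and 13.4% for shRNA5 and shRNA7 and 4.48% at 0.0 ng/ml. A 2 kb window gave 5.05, 5.11, 5.19, 2.70 and 2.29%. Leaving out summits in another transcript or a non-coding gene gave 5.33, 6.66, 6.56, 3.29 and 2.83%. An FDR of at most 5% gave 9.63% in shRNA7, and opposite ends measured from the gene end gave 4.93% at 0.0 ng/ml.

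Median distances with a 2 kb window were 833, 959.5, 962, 812 and 809.5 bp. A score of at least 100 gave 1104 bp in shCTRL and 1402 bp at 1.0 ng/ml, 10-fold enrichment gave 1488 and 1349 bp in shRNA5 and shRNA7, and equal length gave 1556 and 1403 bp. The number of peaks relative to the control was 7.20, 10.7 and 0.715 with a score of at least 100, 1.25, 2.30 and 0.232 with 10-fold enrichment, and 1.49, 1.81 and 0.885 with equal length, for shRNA5, shRNA7 and doxycycline. It was 4.53 upon shRNA5 with 2 kb and 5.34 upon shRNA7 with an FDR of at most 5%. Overlap of shCTRL by shRNA5, shCTRL by shRNA7 and 1.0 by 0.0 ng/ml was 96.7, 86.2 and 69.9% with the score limit, 67.9, 78.4 and 81.8% with 10-fold enrichment, 83.1, 71.6 and 55.1% with equal length, and 47.3, 36.3 and 46.7% for summits within 500 bp. The end-to-promoter change was 0.36 upon shRNA5 and 0.44 upon shRNA7 with tags per peak, and 0.28 with doxycycline at equal length. The cause was not tested.

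No paired analysis was possible because a single library stood for every group, and for the same reason no test between conditions was computed. Totals per library were not used, and a peak that was not called is not shown to be absent.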
